A study of Mus musculus with 8 samples.

Results

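The insulin-like growth factor (IGF) family was examined in the hippocampus of Alzheimer's model mice fed rosmarinic acid (RA), a plant polyphenol. Its members were the 2 ligands Igf1 and Igf2, the receptors Igf1r and Igf2r, and the binding proteins Igfbp2 to Igfbp7, 10 of the 18193 genes that a probe set names alone. Every array probe set whose platform symbol is exactly 1 of these genes was taken, which gave 28 of the 45037 probe sets on the array, and 1 probe set that names both Airn and Igf2r was left out. Both groups were male 3 × Tg-AD mice, which carry mutant forms of human amyloid precursor protein and tau as transgenes and of presenilin 1, so every animal of either group had these alleles. Mice of the control group were kept on the AIN-93G diet without RA, and those of the RA group on the same diet with 0.5% RA, for 8 months until 10 months of age. Total RNA of whole hippocampus was hybridised to 8 arrays, 4 for the control group and 4 for the RA group. The study describes 4 mice of average weight per group and also pooled total RNA, so whether 1 array is 1 mouse is unsettled, and the p-values measure only the spread between these arrays. There was no group of wild-type mice among these arrays, so the comparison is between diets only.

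IGF1 and IGF2 are small secreted ligands related to insulin. Both act mainly through the tyrosine kinase receptor IGF1R, whereas IGF2R takes IGF2 and mannose 6-phosphate-tagged enzymes to lysosomes and does not signal as a kinase. Most of the ligand is held by binding proteins that prolong its life, limit its access to the receptor or deliver it to the cell surface. In the adult brain, IGF2 is made chiefly by the choroid plexus, which lies inside the ventricles, and the meninges, which wrap the brain. IGF2 is known for a part in hippocampal memory. IGFBP7 binds IGFs weakly and is abundant in blood vessels.

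Values are the authors' log2 summaries of each probe set, and a probe set whose SD over the 8 arrays was at most 0.01 was treated as unmeasured, because the summary method draws probe sets without a shared probe signal to a constant. Of the 28 probe sets, 14 were measured, with SDs of 0.140 to 0.704, and the other 14 had SDs of at most 0.00040. Measured probe sets made up 50% of the family, against 8.34% (3758) of all probe sets. They belonged to 8 genes. All 4 probe sets of Igf1 and all 5 of Igf1r were unmeasured, so nothing can be said here about the principal ligand or its signalling receptor. The unmeasured remainder consisted of 1 of 2 probe sets for Igf2r, 1 of 6 for Igfbp4, 1 of 2 for Igfbp5 and 2 of 3 for Igfbp7.

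Of the measured members, 4 were called higher in the RA group and none lower, namely Igf2, Igfbp2, Igf2r and Igfbp7, where 10.9% of all measured probe sets were called higher and 6.84% lower. Promoter sequences are shown for Igf2 and Igfbp2 because their values moved together most closely of all pairs of different members and had the largest differences between the diets. They come from RefSeq on the build GRCm38.p6, run from 250 bases before the start site to 50 after it on the gene's own strand, and carry the motif GGGCGG, the GC box bound by SP1-type factors, in capitals. For Igf2, the most downstream of 4 listed starts is shown, at chr7:142657447-142657746 on the minus strand, with motifs at 100 and 85 bases before the start. For Igfbp2, the upstream one of 2 listed starts is shown, at chr1:72824230-72824529 on the plus strand, with motifs at 113, 98 and 37 bases before the start. The window of its other start holds no match on either strand, and of the 3 other Igf2 windows 1 holds a match, on the opposite strand.
Igf2: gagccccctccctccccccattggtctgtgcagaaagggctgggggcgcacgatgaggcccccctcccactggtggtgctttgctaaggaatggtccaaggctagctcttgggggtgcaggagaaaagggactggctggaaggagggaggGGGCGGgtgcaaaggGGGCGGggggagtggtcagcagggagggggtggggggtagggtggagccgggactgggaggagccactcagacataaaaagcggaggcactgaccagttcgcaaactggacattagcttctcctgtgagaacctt
Igfbp2: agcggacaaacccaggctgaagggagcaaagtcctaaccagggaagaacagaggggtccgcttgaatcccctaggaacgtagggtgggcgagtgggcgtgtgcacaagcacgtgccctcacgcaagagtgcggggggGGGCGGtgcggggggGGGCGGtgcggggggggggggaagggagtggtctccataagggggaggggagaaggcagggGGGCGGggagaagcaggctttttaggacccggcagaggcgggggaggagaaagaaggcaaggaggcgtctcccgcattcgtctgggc
The GC box, searched as GGGCGG on both strands, lay in 6 of the 14 family windows and in 35.7% of all 32851 promoter windows of this length. The windows with a match belonged to Igf1r, Igf2, Igf2r, Igfbp2 and Igfbp7. These matches describe the sequence only, and binding was not measured. On the chromosome, Igfbp2 and Igfbp5 are neighbours on chromosome 1, and Igf2 lies next to Ins2 on chromosome 7.

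Hippocampal samples can carry some choroid plexus and meninges, so these tissues are given first. Transthyretin (Ttr), the secreted thyroxine carrier that marks choroid plexus, had log2 values of 8.54, 8.57, 13.39 and 8.90 in control arrays 1 to 4. In RA arrays 1 to 4 its values were 12.05, 7.67, 13.12 and 13.26. Ttr therefore fell into 2 separate sets of 4 arrays, with control 3 and RA 1, RA 3 and RA 4 high. The mean of the choroid plexus markers was 5.54 to 5.59 in control 1, control 2, control 4 and RA 2, 6.29 in RA 1, 7.22 in RA 3, 7.67 in RA 4 and 7.94 in control 3. All 16 choroid plexus markers on the array were measured and called higher in the RA group, including the potassium channel Kcnj13 and the ageing-related protein Kl, beside 10.9% of all measured probe sets. Control 3 was nevertheless the highest array for all 16, and none passed limma, with adjusted p of 0.766 to 0.905 and exact permutation p of 0.4 to 0.83 (2-sided). The count was 1 when the measured probe sets were ranked alone. It was 14, 8, 16 and 11 without control 1, 2, 3 and 4, in that order. Without RA 1, 2, 3 and 4 it was 2, 14, 3 and 3, and 1 marker was called lower without RA 3 and 1 without RA 4. The mean of the meningeal markers ran in another order, at 7.21, 6.83, 6.75 and 6.96 in the control arrays and 6.86, 7.84, 7.18 and 7.12 in the RA arrays. RA 2 thus had the lowest Ttr and the highest meningeal mean. Of the 16 meningeal markers on the array, 14 were measured and 8 were called higher (none among the measured probe sets alone or without RA 2, 3 without RA 1, and 2 each without RA 3 and without RA 4), among them Ptgds, which makes prostaglandin D2, the matrix protein Dcn and the sulfate transporter Slc13a4. In bulk tissue, fewer cells of a type and less RNA per cell cannot be told apart.

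Igf2, the ligand measured on these arrays, was called higher in the RA group by 1 of its 2 probe sets. Probe set 1448152_at had log2 values of 7.51, 7.19, 8.78 and 7.51 in control arrays 1 to 4 and of 7.41, 8.74, 8.47 and 8.78 in RA arrays 1 to 4. Control 3, RA 2, RA 3 and RA 4 were high and the other 4 arrays low, so the groups overlapped almost fully. The means were 7.75 ± 0.705 (SD, n = 4) and 8.35 ± 0.644 (SD, n = 4), a log2 difference of 0.60 (standard error 0.458, 1.52-fold), with a limma adjusted p of 0.687 and an exact permutation p of 0.4 (2-sided). The call came from the rank product, the test of the study's methods, which ranks all probe sets within each of the 16 RA-control differences and gave an estimated proportion of false positives of 0.0116. Probe set 1415931_at had values of 5.43, 5.40, 6.01 and 5.44 in the control arrays and 5.40, 5.93, 5.76 and 5.98 in the RA arrays, with a difference of 0.20 (standard error 0.189) that was not called. The 2 Igf2 probe sets put the arrays in nearly the same order, with a Pearson r of 0.99 over the 8 arrays.

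Igfbp2, a binding protein with a preference for IGF2 that is also made by choroid plexus and leptomeninges, followed Igf2. Its values were 7.88, 7.51, 9.15 and 7.83 in control arrays 1 to 4 and 7.95, 8.61, 8.55 and 8.94 in RA arrays 1 to 4. The same 4 arrays as for Igf2 were high, and the highest of them was a control array. The group means were 8.09 ± 0.724 and 8.51 ± 0.414 (SD, n = 4 each), a log2 difference of 0.42 (standard error 0.400, 1.34-fold). Igfbp2 was called by the rank product with a proportion of false positives of 0.0137, while its limma adjusted p was 0.751 and its exact permutation p 0.371 (2-sided). Over the 8 arrays, r between Igf2 (1448152_at) and Igfbp2 was 0.96, a description over arrays whose tissue content also varied.

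**Figure D1:**
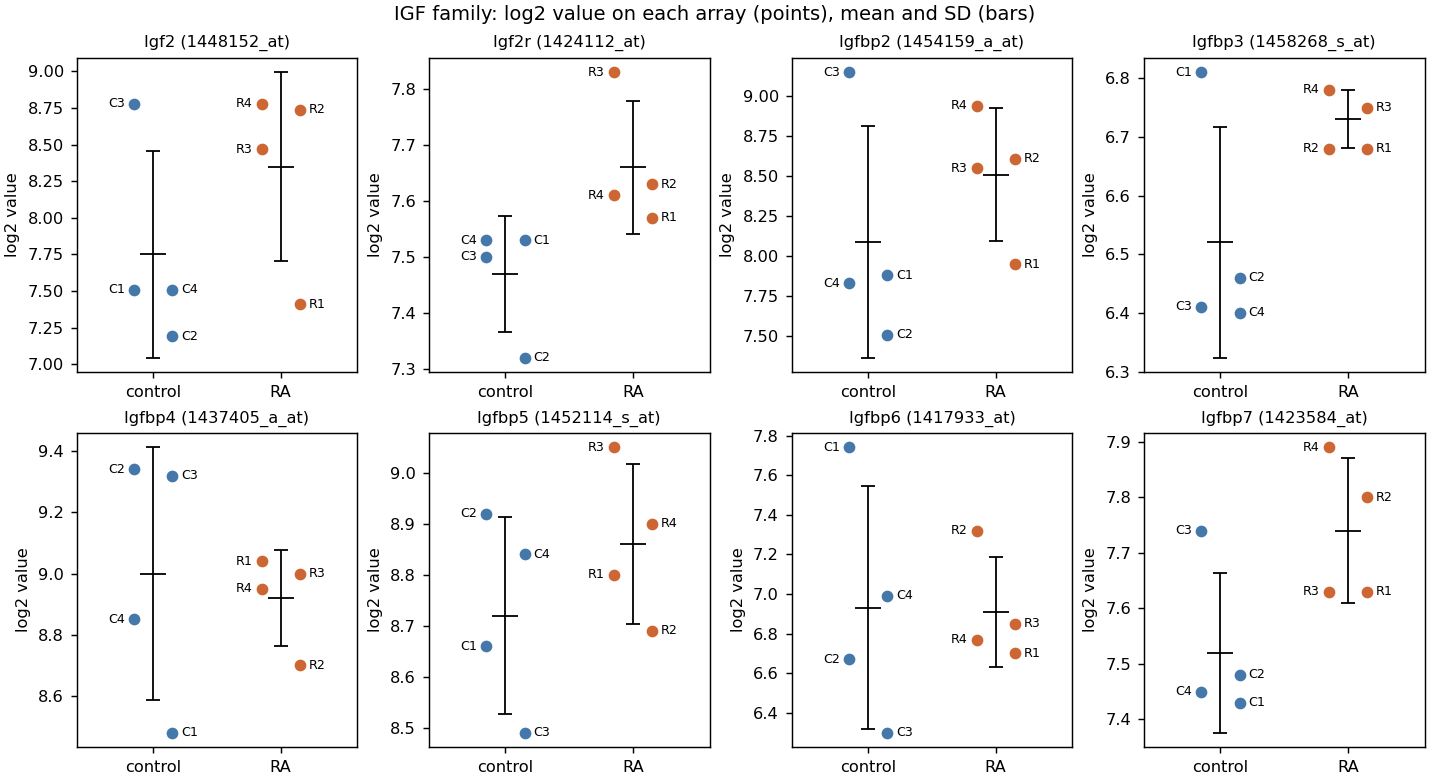
Log2 values (vertical axes) of the measured members on each array, one panel per gene, with control arrays and RA arrays side by side, points for single arrays (C1 to C4 control, R1 to R4 RA) and bars for the group mean and SD. Igf2 and Igfbp2 are high in control 3, RA 2, RA 3 and RA 4, whereas the RA arrays of Igf2r all lie above the control arrays, at 7.57 to 7.83 against 7.32 to 7.53.

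Igf2r, the clearance receptor for IGF2, was the only one of the 14 measured probe sets whose groups did not overlap. Probe set 1424112_at had values of 7.53, 7.32, 7.5 and 7.53 in the control arrays and 7.57, 7.63, 7.83 and 7.61 in the RA arrays. The gap was narrow, from 7.532 in the highest control array to 7.568 in the lowest RA array. The log2 difference was 0.19 (standard error 0.0754, 1.14-fold), with a limma adjusted p of 0.480. The exact permutation p was 0.0286 (2-sided), the smallest that 4 against 4 arrays allow, and the rank product gave a proportion of false positives of 0.0360. Among all measured probe sets, 2.71% had every RA array above every control array and 2.87% had every RA array below, and in the family 1 of 14 (7.14%) had the RA arrays above.

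Igfbp7, the vessel-rich binding protein, was called higher with a difference about as small as that of Igf2r. It had values of 7.43, 7.48, 7.74 and 7.45 in the control arrays and 7.63, 7.80, 7.63 and 7.89 in the RA arrays. Control 3 was the only control array that reached the range of the RA arrays. The log2 difference was 0.21 (standard error 0.0932, 1.16-fold), with a limma adjusted p of 0.511, an exact permutation p of 0.0857 (2-sided) and a rank product proportion of false positives of 0.0461. Igfbp7 varied with Igf2 and Igfbp2, with r of 0.86 and 0.85 over the 8 arrays. Of the 16 markers of endothelium and pericytes on the array, 5 were measured and 2 were called higher, beside 10.9% of all measured probe sets. These were the receptor Flt1 (limma adjusted p 0.541, exact permutation p 0.0286, 2-sided) and the matrix protein Vtn (0.641 and 0.2). None was called among the measured probe sets alone, without control 2, or when any single RA array was left out. The count was 1 without control 3 and 3 without control 1. The mean of the 5 measured markers was 7.48 to 7.69 in the control arrays and 7.63 to 8.12 in the RA arrays. The r of Igfbp7 with that mean was 0.31, against 0.64 with the mean of the choroid plexus markers. For the uncalled Igfbp6, r with the vascular mean was 0.58. Rgs5 and Cldn5, the pericyte and tight junction markers with the highest levels beside Vtn, had differences of 0.00 and 0.25 and were not called, and of the 13 microglial markers on the array 7 were measured, all with a higher mean in the RA group (median difference 0.15), and none was called.

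The other binding proteins were not called in either direction. Igfbp3, the main carrier of IGFs in blood, had values of 6.81, 6.46, 6.41 and 6.40 in the control arrays and 6.68, 6.68, 6.75 and 6.78 in the RA arrays on probe set 1458268_s_at. All RA arrays lay above 3 of the 4 control arrays and below control 1, and the difference of 0.21 (standard error 0.0970) had a limma adjusted p of 0.530 and a rank product proportion of false positives of 0.0708. Without control 1 the difference was 0.30 and was called. Its probe set 1423062_at gave a difference of 0.07 (standard error 0.0982), from 6.33 to 6.78 in the control arrays and 6.5 to 6.64 in the RA arrays. Igfbp5, which binds matrix and is one of the most conserved binding proteins, had values of 8.66, 8.92, 8.49 and 8.84 in the control arrays and 8.80, 8.69, 9.05 and 8.90 in the RA arrays, a difference of 0.14 (standard error 0.119).

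Igfbp4 and Igfbp6 spread widely over the arrays in opposite directions, with mean differences between the diets close to 0. Igfbp4, which restrains IGF action until it is cleaved by pregnancy-associated plasma protein A, had values of 8.48, 9.34, 9.32 and 8.85 in the control arrays and 9.04, 8.70, 9.0 and 8.95 in the RA arrays on probe set 1437405_a_at. Control 1 and RA 2 were low. The 5 measured probe sets had differences of -0.11 to -0.03, and r between them ran from 0.940 to 0.994 over the 10 pairs. Igfbp6, the binding protein most selective for IGF2, had values of 7.74, 6.67, 6.30 and 6.99 in the control arrays and 6.70, 7.32, 6.85 and 6.77 in the RA arrays. Control 1 and RA 2 were high here, and the difference was -0.02 (standard error 0.323). Between Igfbp6 and the 5 Igfbp4 probe sets r was -0.82 to -0.94.

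The mean of the hippocampal neuron markers ran with Igfbp4 over the arrays, with r of 0.77 to 0.90 for its 5 probe sets, and against Igfbp6, with r of -0.89. That mean was 7.28, 8.01, 8.02 and 7.76 in the control arrays and 7.74, 7.20, 7.72 and 7.95 in the RA arrays, lowest in control 1 and RA 2. Wfs1 and C1ql2 did not follow that mean in control 1, where they were highest (9.21 and 6.96). The other measured neuron markers were low there. Of the 12 neuron markers, 10 were measured and 2 were called lower in the RA group, beside 6.84% of all measured probe sets. These were the desmosome protein Dsp, a marker of dentate granule cells, and Neurod6, a transcription factor of pyramidal neurons. Their limma adjusted p was 0.942 and 0.851 and their exact permutation p 0.714 and 0.514 (2-sided). None was called lower among the measured probe sets alone or without control 2, control 3 or RA 2. The count was 1 without control 4, and 6 without control 1 or without RA 4. Nrgn, a calmodulin-binding protein, was unmeasured and Zbtb20 differed by -0.12 without a call. The meningeal mean was highest in RA 2 and second highest in control 1, and its r with Igfbp6 was 0.66. The part that tissue content had in the Igfbp4 and Igfbp6 values was not tested.

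**Figure D2:**
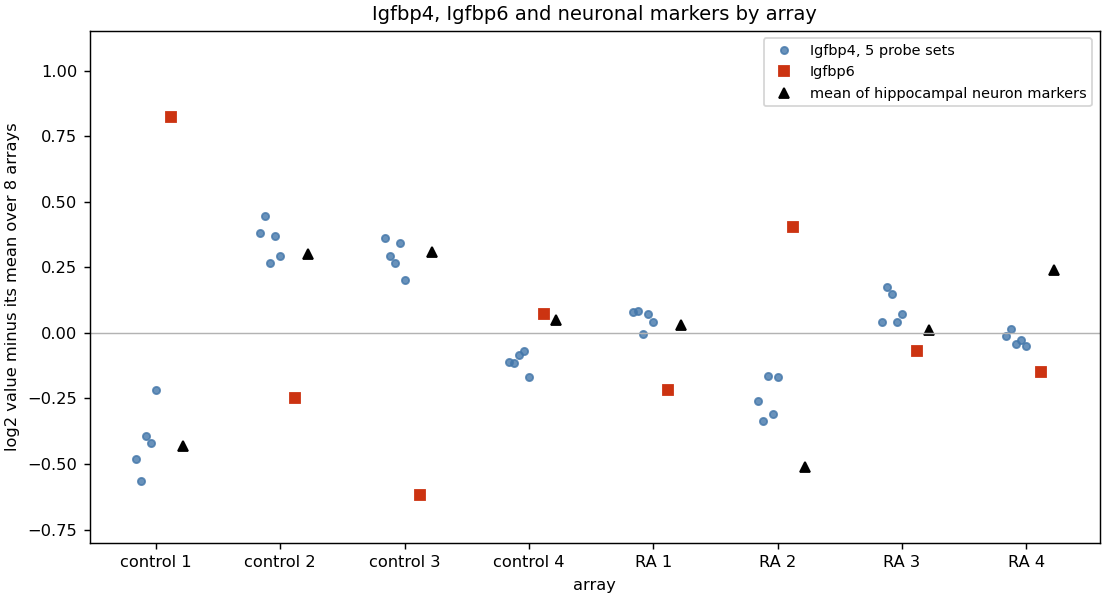
Log2 value minus its own mean over the 8 arrays (vertical axis) on each array (horizontal axis), with circles for the 5 measured Igfbp4 probe sets, squares for Igfbp6 and triangles for the mean of the hippocampal neuron markers. Control 1 and RA 2 have low Igfbp4 and a low neuron marker mean together with high Igfbp6, and control 3 has the reverse.

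The counts were read against the background of the whole array. By the rank product, 0.913% of all probe sets were called higher in the RA group and 0.571% lower, and 4 of the 28 family probe sets (14.3%) were called higher and none lower. Calls can hardly fall on probe sets that do not vary, so the measured ones are the closer background. Of these, 10.9% were called higher and 6.84% lower, beside 4 of 14 (28.6%) and none in the family. The RA mean was above the control mean in 8 of the 14 (57.1%), against 73.1% of all measured probe sets, and the median difference was 0.105 against 0.069. limma called no probe set of the array, with a lowest adjusted p of 0.252, and the 14 family probe sets had adjusted p of 0.480 to 0.991. At an unadjusted limma p under 0.05 there were 4553 probe sets in all (10.1%), most of them unmeasured. Among the measured ones there were 363 (9.66%), and in the family 1 of 14 (7.14%), that of Igf2r.

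The 4 calls depended on the probe sets ranked and on single arrays. When the rank product was run on the 3758 measured probe sets alone, it called 4 higher and 17 lower, none of them in the family. Leaving out any of RA 2, RA 3 or RA 4 left none of the 28 probe sets called, and leaving out RA 1 left Igf2 alone. Leaving out control 2 left Igf2 and Igfbp2, leaving out control 4 lost Igfbp7, and leaving out control 1 gave 7 calls, with Igfbp6 and both Igfbp3 probe sets added. Without control 3, in which Igf2 and Igfbp2 were high, the log2 differences were 0.95 for Igf2 and 0.77 for Igfbp2, and without control 2 they were 0.42 and 0.23. Without RA 1 the Igf2 difference was 0.92, and without RA 4 that of Igfbp2 was 0.28.

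Ttr was then set beside each member. Its r over the 8 arrays was 0.64 for Igfbp2, 0.51 for Igfbp7, 0.48 for Igf2, 0.43 for Igf2r, 0.42 to 0.50 for the 5 uncalled Igfbp4 probe sets and -0.66 for Igfbp6. The other uncalled probe sets had 0.47 (Igf2), 0.13 and -0.37 (Igfbp3) and 0.12 (Igfbp5). By rank, Spearman's rho with Ttr was 0.57 for Igfbp2, 0.48 for Igf2, 0.43 for Igfbp7 and 0.02 for Igf2r. These are given as a description because the Ttr values form 2 separate sets of arrays. With the mean of the choroid plexus markers r was higher for Igfbp2, at 0.82, for Igf2, at 0.68 and 0.70, and for Igfbp7, at 0.64. For Igf2r it was lower, at 0.37. Ttr and Igf2 parted on 2 arrays. RA 1 had a Ttr value of 12.05 with an Igf2 value of 7.41, among the lowest, and RA 2 had the lowest Ttr value of 7.67 with a high Igf2 value of 8.74. RA 2 was the array with the highest meningeal mean, and RA 1 had a choroid plexus mean well under those of the other 3 arrays with high Ttr.

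**Figure D3:**
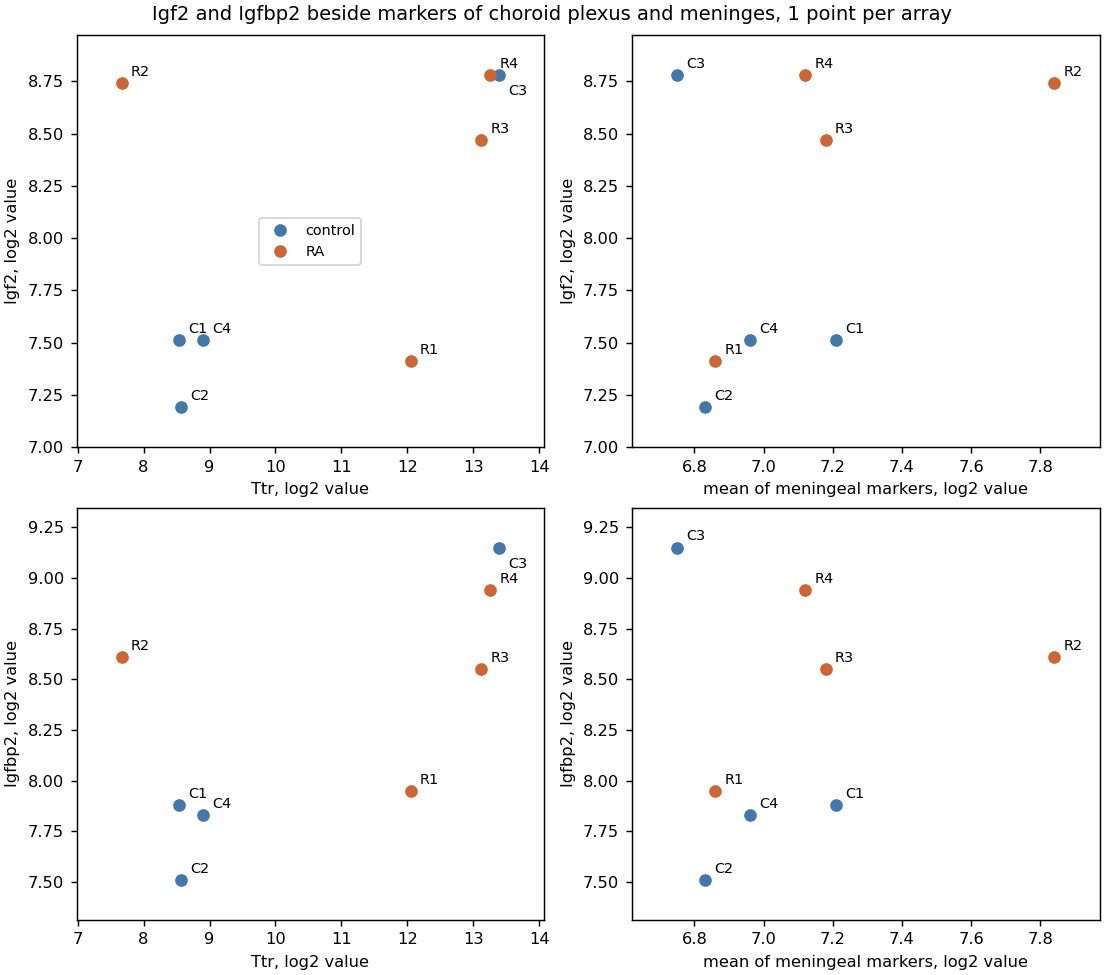
Log2 values of Igf2 (1448152_at) and Igfbp2 on each array (vertical axes) against those of Ttr and against the meningeal marker mean (horizontal axes), with one labelled point per array (C1 to C4 control, R1 to R4 RA) in the colour of its group. RA 2 lies at the left in the Ttr panels, at 7.67, and at the right in the meningeal panels, at 7.84, with Igf2 at 8.74.

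With Ttr as a covariate in limma, the differences between the diets were 0.43 for Igf2 (standard error 0.493), 0.19 for Igfbp2, 0.17 for Igf2r and 0.18 for Igfbp7. Fits with the meningeal mean were added after the values had been seen. With both Ttr and the meningeal mean as covariates, the difference was -0.82 for Igf2 (standard error 0.388), -0.74 for Igfbp2 (standard error 0.330), 0.02 for Igf2r and 0.03 for Igfbp7, and the lowest limma adjusted p in the family was 0.878. With the meningeal mean alone the 4 differences kept their direction, at 0.44, 0.41, 0.17 and 0.21 in the same order. Only the fit with both covariates turned the direction for Igf2 and Igfbp2 and brought the differences of Igf2r and Igfbp7 close to 0. Taken 1 at a time, Ttr, the meningeal mean and the diet held 23.0%, 17.6% and 21.1% of the variance of Igf2 (1448152_at) over the arrays. For Igfbp2 the diet held 14.5% against 40.8% for Ttr and 4.1% for the meningeal mean. For Igf2r the diet held 49.3% against 18.3% for Ttr and 20.9% for the meningeal mean, and for Igfbp7 it held 44.2% against 25.9% and 11.5%. Ttr and the meningeal mean together, as 2 terms, held 72.4% for Igf2, 69.8% for Igfbp2, 70% for Igf2r and 65.2% for Igfbp7. With 8 arrays and 2 covariates few degrees of freedom remain, and whether tissue content gave the diet differences was not tested.

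**Figure D4:**
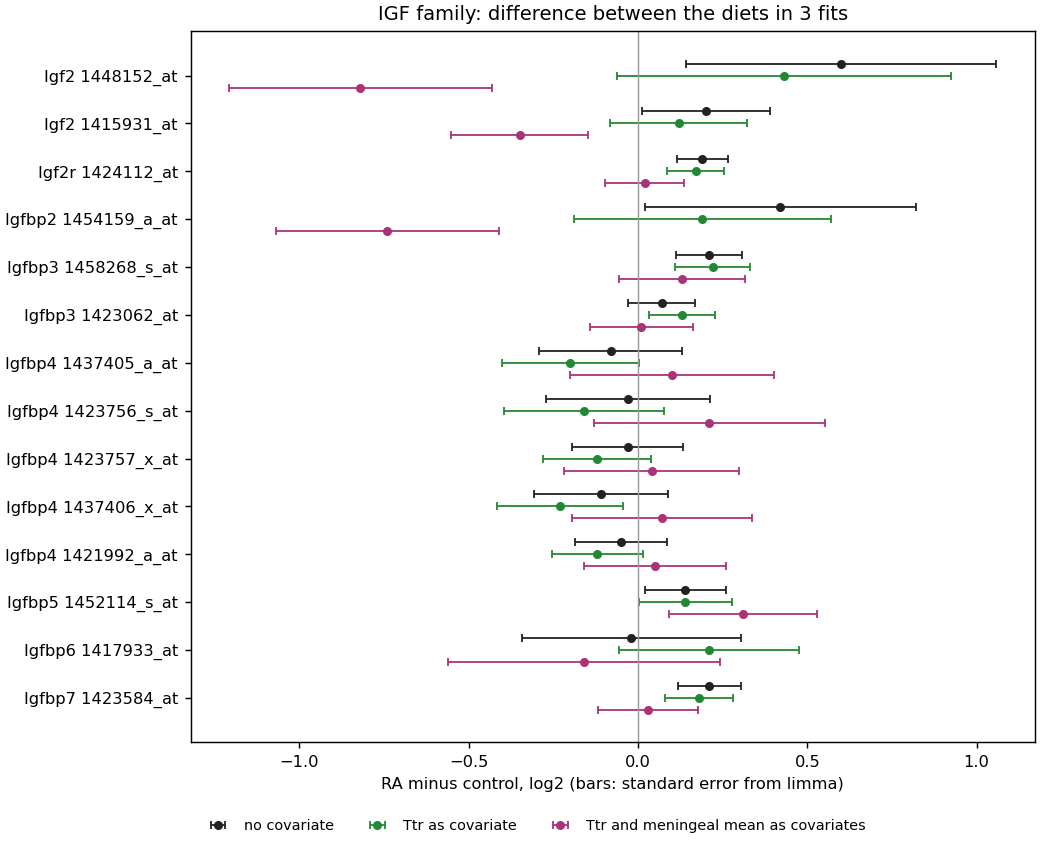
RA minus control in log2 units (horizontal axis) for the 14 measured probe sets of the family (vertical axis), from limma without a covariate, with Ttr, and with Ttr and the meningeal marker mean, with bars for the standard error. The 2 Igf2 probe sets and Igfbp2 change sign in the fit with both covariates, to -0.82, -0.35 and -0.74.

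The genes whose values ran most like those of each member over the 8 arrays were ranked by Pearson r among 2488 measured genes with the family members themselves left out, as a description. For Igf2 they were the TGF-beta co-receptor Tgfbr3 (0.976), the galectin Lgals1 (0.963) and Slc13a4 (0.929), which is on the meningeal list. For Igfbp2 they were Tgfbr3 (0.977), Gpx8 (0.974) and the cell cycle inhibitor Cdkn1c (0.959). For Igfbp7 they were the matrix protein Postn (0.968) and the actin-binding proteins Cnn3 (0.948) and Cald1 (0.938). For Igf2r they were the neuronal adhesion protein Cntn1 (0.924), Cnpy2 (0.911) and the lysosomal peptidase Tpp1 (0.911). By its probe set with the highest r, Ttr ranked 154 for Igfbp2 (0.70), 220 for Igf2 (0.55) and 256 for Igfbp7 (0.55). It ranked 659 for Igf2r (0.45) and 1987 for Igfbp6 (-0.65). For Igfbp4 the leading genes were Erbin (0.973), Foxn2 (0.972) and Pcdh20 (0.967), and for Igfbp6 the zinc transporter Slc39a10 (0.977), the neuronal ubiquitin hydrolase Uchl1 (0.973) and Man1c1 (0.972). For Igfbp5 they were Tshz2 (0.992), Asap1 (0.964) and Hlf (0.960), and for Igfbp3 Tpm1 (0.931), Haghl (0.924) and Srsf5 (0.918).

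Other genes of the pathway were taken from a list of 48 (insulin, other binding proteins, proteases, adaptors, kinases and transcription factors), of which 41 are named by a probe set alone. Most were unmeasured, Akt and Foxo family members included, and only 5 of the 41 varied over the arrays. Of these 5, 2 were called higher in the RA group and none lower, beside 10.9% and 6.84% of all measured probe sets. The median difference was 0.13 over the 5, beside 0.069 over all measured probe sets, and 0.000067 over the 41. The insulin receptor substrate Irs4 had values of 5.66, 5.15, 5.18 and 5.58 in the control arrays and 6.38, 6.20, 5.60 and 5.33 in the RA arrays, a difference of 0.48 (standard error 0.269). Its limma adjusted p was 0.5865 and its exact permutation p 0.1429 (2-sided). The mean of Irs4 over all arrays, 5.63, lay below the lowest array median of 5.829. RA 1 and RA 2 were high, and the other 2 RA arrays lay within the range of the control arrays. The adaptor Grb10, which dampens insulin and IGF receptor signalling, had values of 7.67, 7.06, 6.99 and 7.46 in the control arrays and 7.61, 7.79, 7.52 and 7.39 in the RA arrays, a difference of 0.28 (standard error 0.175) with overlapping groups. For Grb10 the limma adjusted p was 0.619 and the exact permutation p 0.2 (2-sided). Gab1, Plagl1 and Grb14 had differences of 0.13, 0.13 and 0.06 and were not called.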

How the data were processed

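Hippocampal RNA of 3 × Tg-AD mice was measured on 8 Affymetrix mouse arrays, grouped by the sample labels. The authors ran FARMS, which models the signal shared by the probes of a set, and deposited its log2 values. Any scaling between arrays is not stated in the sources used. Medians of the RA arrays (5.833 to 5.835) lay just above those of the control arrays (5.829 to 5.831). The number of arrays limits the precision. The deposited values were used as they stand. Names came from the platform's annotation (34945 name 1 gene, 932 several, 9160 none).

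The rank product of the study's methods (100 permutations within arrays, threshold 0.05 on the estimated proportion of false positives, each direction) gave the calls. limma 3.58.1 in R 4.3.3 gave each difference, its standard error and a Benjamini-Hochberg adjusted p over all probe sets, and an exact permutation test (2-sided) was run on single probe sets. Both fits were run on simulated arrays with known changes. There each probe set varied independently, so variation shared by genes of a tissue was not covered. For each member the probe set with the highest mean was ranked against other genes, and the 3 with the highest r are named. Each other gene entered by 1 probe set, that with the highest r. Of the partners, called genes and the 4 with the largest differences are named, and of each marker list Ttr and the genes with the highest means. Alternatives were other scalings, a filter on low means, measured probe sets alone, a stricter threshold, limma and the methods' t-test for calls, a replicate block, left-out arrays and tissue covariates. The members and lists were chosen with earlier results of these data known.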

Additional observations from a re-analysis of the deposited data

Results flagged for a closer look

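Among the 28 groups of 4 arrays tested, 4 held an array that stood apart from the other 3 by more than Dixon's 95% limit, where chance gives about 1 in 20. These were control 3 for Igf2 (1415931_at, log2 value 6.01), control 2 for Igf2r (7.32), control 1 for Igfbp3 (1458268_s_at, 6.81) and control 3 for Igfbp7 (7.74). Each of them was a control array, and control 3 was the control array with high Ttr. The 28 groups were not independent, because probe sets of the same gene and some different members ran together over the arrays. The count was therefore not tested against 1 in 20.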

How the results depend on the processing

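Quantile normalization and subtraction of array medians left the same 4 probe sets called. The family count was 2 with a filter on low means, 0 among the measured probe sets alone, 0 at a proportion of false positives under 0.01, 0 with limma and 0 with the methods' t-test, unadjusted or after Benjamini-Hochberg. Leaving out 1 array at a time gave 0 to 7. For the pathway partners (2 called), these settings gave 0 with the filter, 0 among measured probe sets, 0 at 0.01, 0 with limma, 4 with the methods' t-test unadjusted (Igfals, Stc2, Shc1 and Foxo4, all nearly constant, so none of the measured partners) and 0 adjusted, and 0 to 3 with 1 array left out. Between the deviations of arrays with the same number from their group means, r was -0.12, -0.33, 0.45 and -0.39. Only pair 3 was positive. Tissue content also varied between arrays, so these values cannot decide whether the numbers pair them. With the replicate block the rank product called 1 member (Igfbp2) and 1 partner, and limma called 0 of either.

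Ttr as a covariate turned Igfbp6 to 0.21. Ttr with the meningeal mean turned Igf2 to -0.82 and -0.35, Igfbp2 to -0.74, and the 5 Igfbp4 probe sets to 0.100, 0.207, 0.041, 0.070 and 0.054. The meningeal mean alone, also chosen after seeing the data, turned Igfbp4 to 0.133, 0.22, 0.112, 0.096 and 0.071 and Igfbp3 (1423062_at) to -0.014. With 1 array left out, Igfbp6 ran from -0.22 to 0.26, and the Igfbp4 probe sets that changed sign ran from -0.25 to 0.036, -0.223 to 0.115, -0.164 to 0.055 and -0.135 to 0.036. For these turns, the cause was not tested. The constant probe sets set the limit of what these arrays can show.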
